A study of Homo sapiens with 6 samples.

Results

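The replication-dependent histone genes are short genes without introns that encode the linker histone H1 and the core histones H2A, H2B, H3 and H4. Members were the genes with a histone symbol of the HIST1 to HIST4 type, or its current equivalent, to which at least 1 occupied region was assigned, and the rule used no measured value beyond that. It gave 45 of the 16428 gene symbols in the data: 5 H1, 12 H2A, 13 H2B, 6 H3 and 9 H4 genes. Of the 45, 44 are coding genes of GENCODE release 44, and the H2B symbol HIST2H2BC (H2BC20P) is not. Symbols are given as in the deposited lists, with the current symbol where it helps. RNA polymerase II was profiled by ChIP-seq in HepG2 cells, a human hepatoma line, with antibodies against its largest subunit RPB1 and against RPB1 phosphorylated at Ser2 of the C-terminal repeats (pSer2), a modification associated with elongation. The SHP-1 KO cells carried a CRISPR disruption of PTPN6, which encodes the tyrosine phosphatase SHP-1. The paper describes a nontargeting CRISPR guide as a control, but does not say whether the WT cells used for ChIP-seq carried it. Each genotype was a line grown from a single cell and gave 1 library per antibody, so clone, library and genotype cannot be told apart. Differences between the libraries carry no replicate check, and p-values are not given. The comparison addresses how RNA polymerase II occupancy relates to the presence of SHP-1.

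Replication-dependent histone mRNAs are made mainly in S phase, when new DNA has to be packaged, and most of their genes lie in a large cluster on chromosome 6p, with smaller groups on chromosomes 1 and 12. H2A and H2B genes often stand head to head and share the promoter between them. Their transcripts carry no poly(A) tail: a conserved stem-loop in the 3′ end is bound by SLBP, the U7 snRNP pairs just downstream, and the RNA is cut a few bases after the stem. In a culture that is not synchronized, a lower share of cells in S phase and less polymerase per cell cannot be told apart.

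The stem-loop sets the 3′ end of these genes and was used here as a landmark and as a check of the gene class. Of the 20007 coding genes of GENCODE release 44, 69 have a symbol of this rule. All 69 held a match to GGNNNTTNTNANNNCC on the gene strand, searched from 200 to 1200 bp past the start. The N positions before the fixed adenine were pyrimidines, with any base just before it, and those after it were purines. The match began 365 to 776 bp past the start, with a median of 466 bp. The genes differ little in this element, which is shown with its flanks for 4 of the genes that the results turn on, from the H1, H2B, H3 and H4 classes, with the 16 matched bases in capitals (hg38, gene strand, DNA letters):
HIST1H1E (H1-4), chr6:26157095-26157110, forward: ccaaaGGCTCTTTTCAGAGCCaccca
HIST1H2BI (H2BC10), chr6:26273392-26273407, forward: ccaaaGGCTCTTCTAAGAGCCaccca
HIST1H3F (H3C7), chr6:26250145-26250160, reverse: ccaaaGGCTCTTTTCAGAGCCaccaa
HIST1H4E (H4C5), chr6:26205001-26205016, forward: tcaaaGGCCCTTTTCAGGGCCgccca
Among the 64 genes whose sequences were in the RefSeq table, 37 genes of the H1, H2A, H2B and H3 classes shared the 16 bases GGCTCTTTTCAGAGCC, and 8 H4 genes shared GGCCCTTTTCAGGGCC. A further 9 genes had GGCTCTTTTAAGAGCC and 4 H4 genes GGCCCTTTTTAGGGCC, and each of the other 6 genes had a variant of its own.

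The promoters are shown because RPB1 regions at these genes sat on them. RefSeq (GRCh38.p14) gave a promoter for 64 of the 69 genes. Below are the 150 bases before the start, on the gene strand, with 3 motifs in capitals on either strand. They are the TATA box letters TATAAA. A second motif is the NF-Y box, written CCAAT. The last is the octamer bound by POU factors, ATTTGCAT. HIST1H1E had the highest RPB1 value of the histone genes, HIST1H2BG and HIST1H2AE are a head-to-head pair, HIST1H4E is an H4 gene, and HIST1H3F, HIST1H2BH and HIST1H2BI lie in the stretch described below where the 2 genotypes differed:
HIST1H1E (H1-4), chr6:26156179-26156328, forward: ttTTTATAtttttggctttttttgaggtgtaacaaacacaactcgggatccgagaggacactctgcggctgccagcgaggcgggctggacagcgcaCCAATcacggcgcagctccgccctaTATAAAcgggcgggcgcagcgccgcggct
HIST1H2BG (H2BC8), chr6:26216689-26216838, reverse: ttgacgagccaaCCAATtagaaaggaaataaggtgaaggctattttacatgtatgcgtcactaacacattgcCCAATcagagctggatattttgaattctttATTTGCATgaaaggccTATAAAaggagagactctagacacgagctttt
HIST1H2AE (H2AC8), chr6:26216771-26216920, forward: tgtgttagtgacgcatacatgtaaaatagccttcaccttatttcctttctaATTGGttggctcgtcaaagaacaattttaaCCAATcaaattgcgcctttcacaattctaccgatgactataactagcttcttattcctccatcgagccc
HIST1H4E (H4C5), chr6:26204460-26204609, forward: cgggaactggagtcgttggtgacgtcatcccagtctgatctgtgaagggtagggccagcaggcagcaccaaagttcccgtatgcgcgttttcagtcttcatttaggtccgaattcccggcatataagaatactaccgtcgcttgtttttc
HIST1H3F (H3C7), chr6:26250636-26250785, reverse: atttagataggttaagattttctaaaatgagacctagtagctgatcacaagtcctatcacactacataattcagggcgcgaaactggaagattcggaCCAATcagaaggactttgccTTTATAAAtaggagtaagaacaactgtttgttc
HIST1H2BH (H2BC9), chr6:26251464-26251613, forward: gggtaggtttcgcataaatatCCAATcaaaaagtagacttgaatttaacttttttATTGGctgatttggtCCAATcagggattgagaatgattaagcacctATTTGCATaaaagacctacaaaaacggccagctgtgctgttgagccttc
HIST1H2BI (H2BC10), chr6:26272781-26272930, forward: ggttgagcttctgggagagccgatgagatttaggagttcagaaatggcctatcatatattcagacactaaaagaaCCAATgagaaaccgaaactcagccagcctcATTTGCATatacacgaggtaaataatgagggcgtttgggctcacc
Over the 250 bp before the start and both strands, the histone classes differed in these letters. CCAAT was present in all 6 H1, 16 H2A, 18 H2B and 11 H3 promoters but in 3 of 13 H4 promoters, against 33.0% of all 27305 promoters. The octamer was present in 14 of 18 H2B and 11 of 16 H2A promoters, in 1 of 11 H3 promoters and in no H1 or H4 promoter, against 1.66% of all promoters. The H3 promoter with the octamer is that given for HIST1H3D, whose RefSeq start, at −2007 bp from its GENCODE start, is that of the H2A gene HIST1H2AD. Without HIST1H3D and HIST1H3E, whose RefSeq start also lay over 250 bp from the GENCODE start, 0 of 9 H3 promoters held it. TATAAA was present in 42 of 64 histone promoters (65.6%) against 11.1% of all promoters. On the gene strand, the TATAAA nearest the start began a median of 31 bp upstream, with an interquartile range of 29 to 31 bp over 37 promoters.

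**Figure D1:**
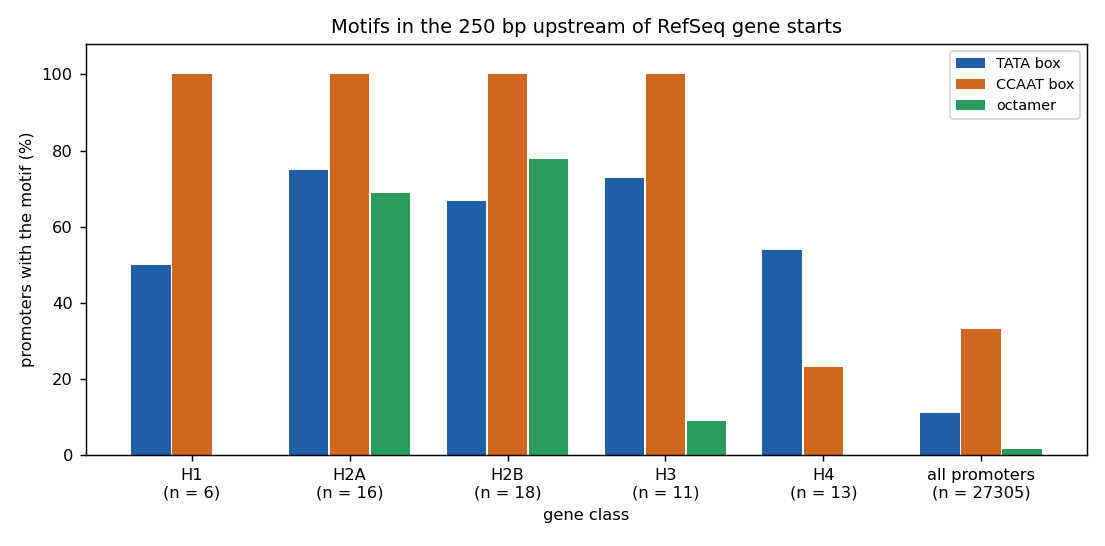
Bars give the percentage of RefSeq promoters (250 bp before the start, both strands) that hold the TATA box, the CCAAT box or the octamer, for each histone class and for all 27305 promoters. The CCAAT box stands in every H1, H2A, H2B and H3 promoter and in 23.1% of H4 promoters, and the octamer is at 77.8% in H2B and 68.8% in H2A promoters.

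By the deposited gene assignment, 39 of the 45 members had an RPB1 region in WT cells and 37 in SHP-1 KO cells, and 38 and 35 had a pSer2 region. Of all 16428 symbols, 14164 and 13459 had an RPB1 region and 12740 and 11433 a pSer2 region. Members and symbols alike were counted only if a region was assigned to them in at least 1 list. The assignment gives each region to 1 nearest gene, so a region that covers a head-to-head pair counts for a single partner. Occupancy was therefore also read at the gene starts, a view added after the assigned values were seen, as the strongest region within 250 bp of the start of each of the 69 coding histone genes. In WT cells 47 of the 69 starts (68.1%, 95% Wilson interval 56.4 to 77.9%) lay under an RPB1 region, against 59.0% of all coding genes, and 39 under a pSer2 region, against 31.6%. In SHP-1 KO cells the counts were 41 for RPB1, against 57.1%, and 34 for pSer2, against 28.6%. Intervals cover counting error only. The 47 WT starts lay under 33 distinct RPB1 regions, since 27 of the genes shared their region with another histone gene, and genes under the same region carry the same fold enrichment here.

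Every histone start with a pSer2 region also had an RPB1 region in the same genotype, and 22 starts had no region in any of the 4 lists. Genes with products made mainly in testis were among the 22: HIST1H1T, HIST1H2AA and HIST1H2BA. So were 6 genes of the duplicated segment on chromosome 1, HIST2H4A, HIST2H4B, HIST2H3A, HIST2H3C, HIST2H2AA3 and HIST2H2AA4, in which 0% of the 50-base windows between start and stem-loop occur a single time in hg38. The reads were 50 bases long, so occupancy at these near-identical copies is uncertain. Of the 46 genes with over 90% such unique windows, 32 had an RPB1 region at the start in WT cells and 14 had none. HIST1H4J and HIST1H4K, H4 genes with 6.01% unique windows, showed RPB1 regions that began 190 to 227 bp past their starts, and weaker separate regions before them.

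In WT cells the RPB1 fold enrichment at the 47 starts ranged from 3.95 to 64.9, with a median of 27.3, which was close to the median of all coding genes with a region at the start (29.2). In SHP-1 KO cells it ranged from 3.70 to 60.3 with a median of 27.2, against 20.96 for all coding genes. The pSer2 medians were 7.90 in WT cells and 10.6 in SHP-1 KO cells, against 4.67 and 4.65 for all coding genes. Fold enrichments of the 2 antibodies are not on a common scale, so they were compared by rank. The median histone gene stood at the 45.8th percentile for RPB1 and at the 85.3rd for pSer2 in WT cells. In SHP-1 KO cells these percentiles were 67.3 and 92.9. Ribosomal protein genes, which are also heavily transcribed, stood at percentiles 75.2 and 82.6 in the WT lists. In the SHP-1 KO lists they stood at 81.2 and 86.3. They were longer, with a median gene length of 4446.5 bp against 438 bp for members in the WT RPB1 list. By the deposited assignment, the median member stood at 43.1 and 64.4 in WT cells and at 64.3 and 75.5 in SHP-1 KO cells. Ribosomal protein genes there stood at 69.6 and 83.0 and at 78.6 and 90.1. For pSer2 the order of the 2 groups thus depended on the view.

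**Figure D2:**
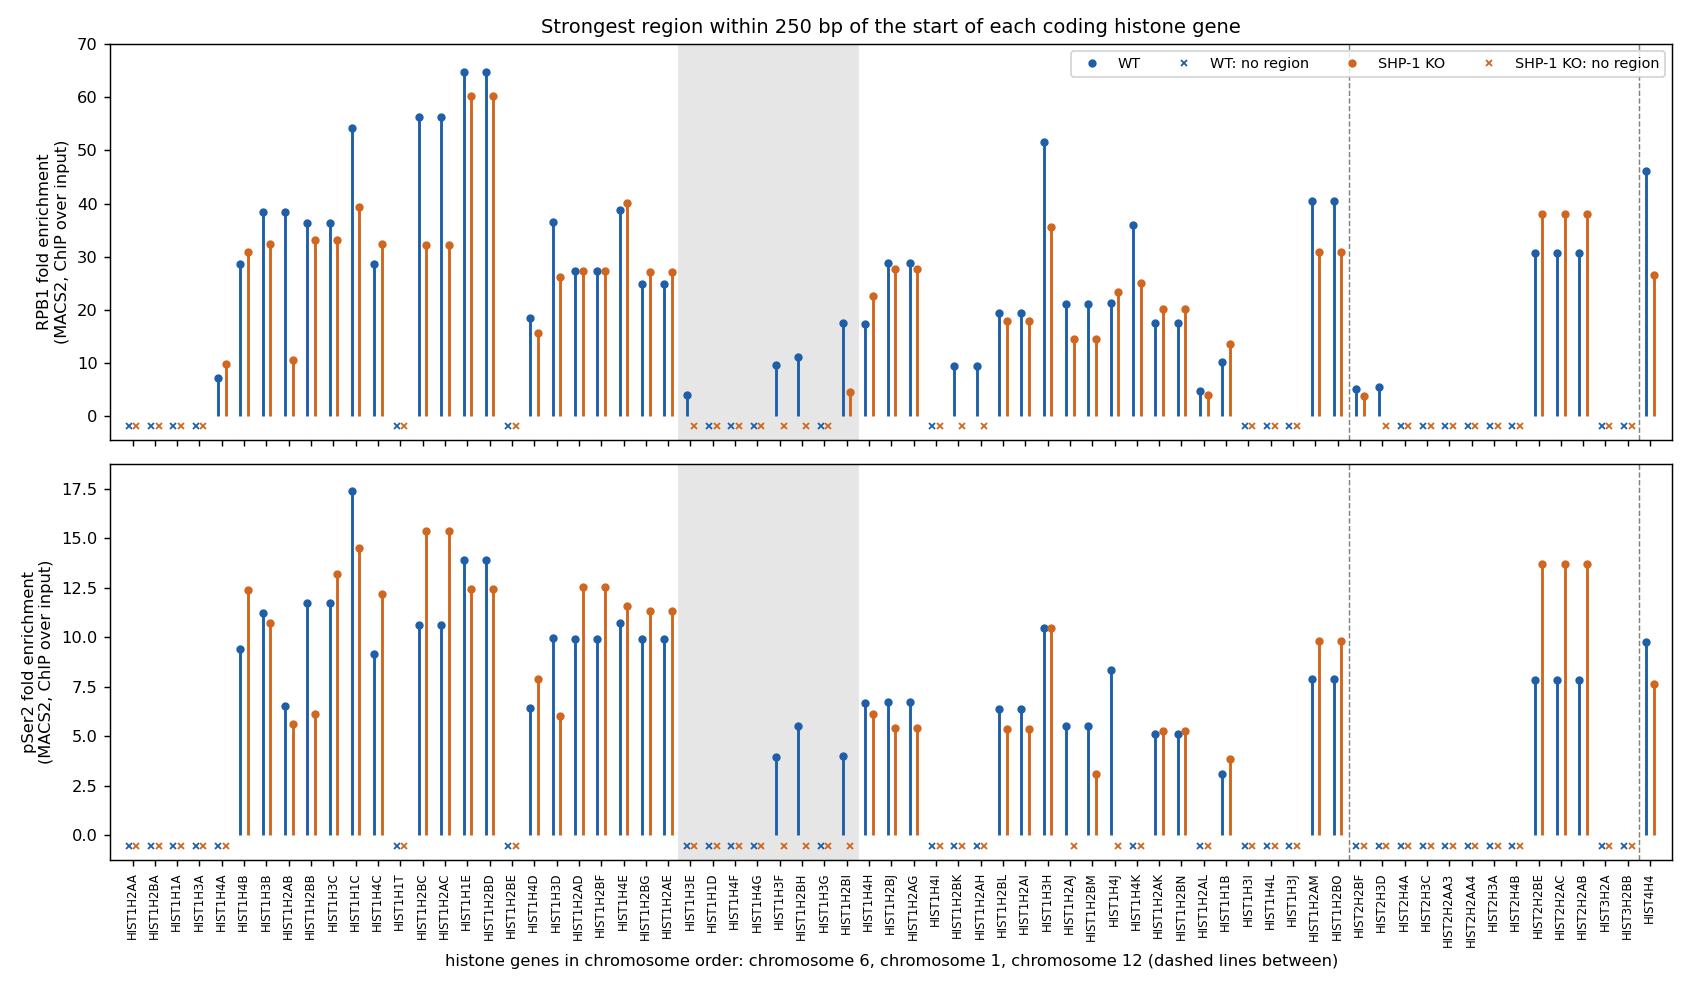
Fold enrichment over input of the strongest RPB1 (top) and pSer2 (bottom) region within 250 bp of each of the 69 coding histone gene starts, in chromosome order, for WT (blue) and SHP-1 KO cells (orange), 1 library each. Crosses mark starts without a region. The shaded stretch from HIST1H3E to HIST1H2BI holds, by the GENCODE starts, 4 WT RPB1 starts and 1 in SHP-1 KO cells, and 3 WT pSer2 starts and none in SHP-1 KO cells.

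Most histone starts with RPB1 also carried pSer2. In WT cells 39 of 47 RPB1 starts (83.0%, 69.9 to 91.1%) had a pSer2 region at the start, against 52.3% of all coding genes. In SHP-1 KO cells 34 of 41 (82.9%, 68.7 to 91.5%) did, against 49.0%. Among ribosomal protein genes, all 80 starts with RPB1 carried pSer2 in both genotypes, so this was not particular to histone genes. By the deposited assignment, which also counts regions in gene bodies, the difference was smaller: 34 of 39 members against 77.0% of all symbols in WT, and 31 of 37 against 73.4% in SHP-1 KO cells. The 8 WT starts with RPB1 and without pSer2 were those of HIST1H4A, HIST1H3E, HIST1H2BK, HIST1H2AH, HIST1H4K, HIST1H2AL, HIST2H2BF and HIST2H3D. Of these, HIST1H4K and HIST1H3E had assigned pSer2 regions outside the window of 250 bp, as did HIST1H4J and HIST1H2AJ in SHP-1 KO cells.

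By the deposited assignment, which takes the strongest region anywhere in or near a gene, pSer2 summits had a median nearer to the start at histone genes than over all symbols. The summit of the strongest region of a member lay a median of 64 bp (WT) and 39 bp (SHP-1 KO) past the start for RPB1, where the median of all symbols was 73 and 72 bp. For pSer2 it lay 99 bp (WT) and 101 bp (SHP-1 KO) past the start, whereas the median of all symbols was 1268.5 and 1247 bp, that of ribosomal protein genes 1840 and 2226 bp, and that of other genes of up to 1 kb 1511 and 1789 bp. Most histone genes end before those distances are reached. Among regions at the gene starts alone the order turned: the median pSer2 summit lay 49 bp (WT) and 36 bp (SHP-1 KO) past the start at histone genes, 13 and 20 bp at all coding genes and 35 and 36 bp at ribosomal protein genes. Of the 27 distinct WT pSer2 regions at histone starts, 24 (88.9%, 71.9 to 96.1%) had their summit between the start and the stem-loop of a histone gene, as did 21 of 24 in SHP-1 KO cells. For RPB1 the counts were 29 of 33 and 23 of 29. At genes with both regions at the start, the pSer2 summit lay a median of 6 bp past the RPB1 summit in WT cells (39 genes, interquartile range −48.5 to 47.5 bp) and 8.5 bp past it in SHP-1 KO cells (34 genes). Summits of the 2 antibodies also nearly coincided elsewhere, with medians of −17 and −15 bp over all coding genes and −7 and 1 bp over ribosomal protein genes.

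Regions were longer than the genes. The strongest region of a member had a median length of 1549 bp for RPB1 in WT cells, 1503 bp in SHP-1 KO cells, and 974.5 and 1030 bp for pSer2, beside a median gene length of 487 bp for the 69 coding genes. RPB1 regions ran past the stem-loop at 40 of 47 WT starts and 36 of 41 SHP-1 KO starts, with a median downstream edge 824 and 891 bp beyond it. pSer2 regions did so at 27 of 39 and 25 of 34 starts, with medians of 402 and 565.5 bp. These edges are those of the peak caller on sonicated chromatin and do not locate the end of transcription.

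**Figure D3:**
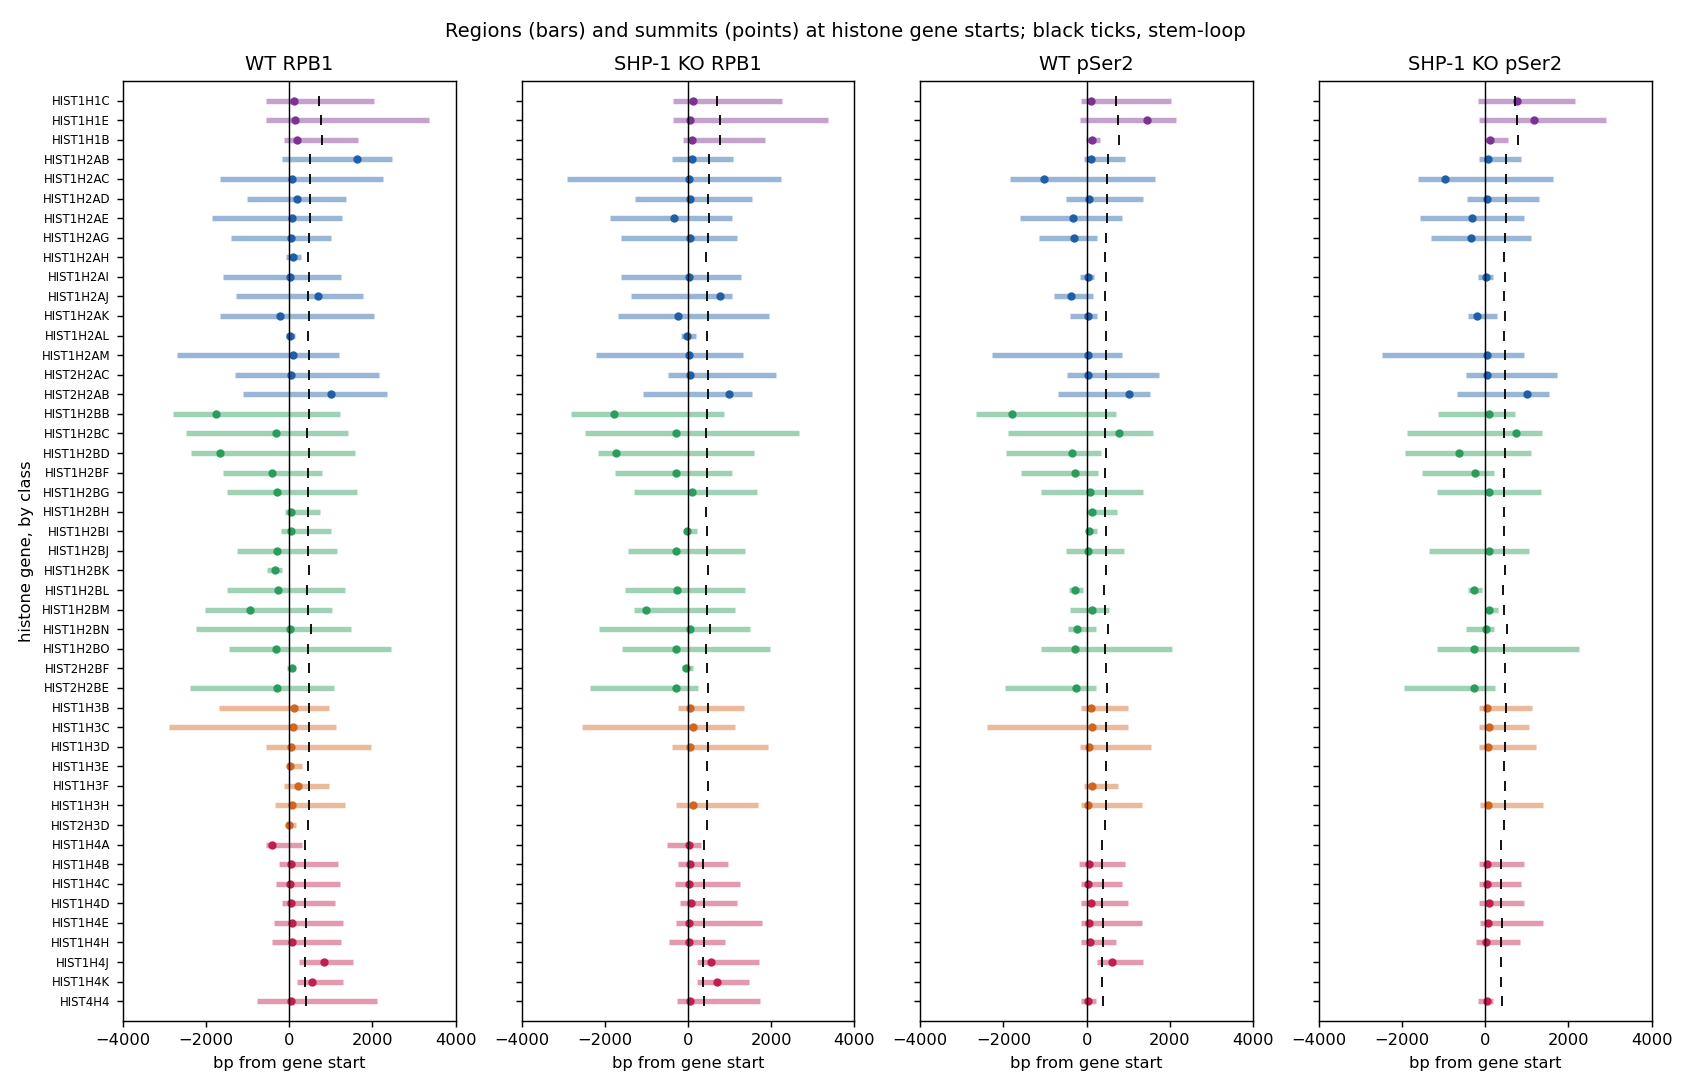
Each bar is the strongest region within 250 bp of a histone gene start, drawn in bp from the start in the direction of transcription, with its summit as a point and the stem-loop as a black tick, for WT RPB1, SHP-1 KO RPB1, WT pSer2 and SHP-1 KO pSer2. Most summits lie within 250 bp of the start of the gene or of its head-to-head partner, and most RPB1 bars end past the stem-loop.

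The linker histone genes ranged from the highest RPB1 value of the histone genes to no region at all. HIST1H1E (chr6:26156329-26157115, forward, a single exon), which encodes a main somatic H1, had RPB1 fold enrichments of 64.9 in WT cells and 60.3 in SHP-1 KO cells and pSer2 fold enrichments of 13.9 and 12.5. The summit of its RPB1 region lay 133 bp (WT) and 56 bp (SHP-1 KO) past the start, while the pSer2 summit lay 1446 and 1168 bp past it, beyond the stem-loop at 766 bp and before the H2B gene HIST1H2BD. HIST1H1C (H1-2), another somatic H1, had 54.2 and 39.3 for RPB1 and the highest WT pSer2 value of the members, 17.4, beside 14.5 in SHP-1 KO cells. HIST1H1B (H1-5) was lower, at 10.1 and 13.6 for RPB1 and 3.13 and 3.84 for pSer2 at its start. HIST1H1D (H1-3) had no region at its start, and its single assigned region was a WT pSer2 region of 3.01 in intergenic DNA. HIST1H1A (H1-1) had no region at its start either: the assigned values of 48.0 and 27.1 for RPB1 came from regions about 25 kb downstream in the gene direction, 25187 and 25148 bp from its start. They are not read as occupancy of HIST1H1A.

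Core histone genes of the chromosome 6 cluster reached levels like those of HIST1H1E and HIST1H1C. HIST1H2BC and HIST1H2AC, a head-to-head H2B and H2A pair, lay under a single region in each list, with 56.4 (WT) and 32.1 (SHP-1 KO) for RPB1 and 10.6 and 15.4 for pSer2. Their WT RPB1 value was above that of HIST1H1C, and their SHP-1 KO pSer2 value was the highest of the histone genes. The H3 gene HIST1H3H had 51.7 and 35.5 for RPB1 and 10.5 in both genotypes for pSer2. HIST1H4E, an H4 gene, had 38.7 and 40.1 for RPB1 and 10.8 and 11.6 for pSer2. At HIST1H3C, which encodes H3, the values were 36.4 and 33.1 for RPB1 and 11.8 and 13.2 for pSer2. The WT RPB1 and pSer2 regions of HIST1H3C also covered the H2B gene HIST1H2BB. In SHP-1 KO cells the RPB1 region was again shared, while the pSer2 regions were separate and that of HIST1H2BB stood at 6.12. In classes, median RPB1 fold enrichments at the starts with a region were 54.2 for H1 (3 genes), 27.3 for H2A (13), 24.8 for H2B (15), 36.4 for H3 (7) and 28.6 for H4 (9) in WT cells. In SHP-1 KO cells they were 39.3 for H1 (3), 27.2 for H2A (12), 27.2 for H2B (13), 32.8 for H3 (4) and 24.97 for H4 (9). At H2B starts the median WT RPB1 summit lay at −297 bp, and many of these values are of regions shared with a neighbour. By the deposited assignment, the WT medians were 51.1 for H1, 22.9 for H2A, 6.69 for H2B, 6.60 for H3 and 28.6 for H4. The order of the classes thus depended on the view.

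Between the genotypes, RPB1 values across the whole genome were lower in SHP-1 KO cells, and the histone genes had a median ratio nearer to 1. The SHP-1 KO to WT ratio of RPB1 had a median of 0.742 over the 12877 symbols with a region in both lists, a shift of −0.43 on the log2 scale. The median of the 35 members with both regions was 0.925, and relative to the shift it was 1.25, so its direction depends on this scaling. RPB1 was lower past 1.5-fold in SHP-1 KO cells at 6 of the 35 members, against 36.1% of all symbols, and higher past 1.5-fold at 3, against 2.68%. Relative to the shift, 3 members were lower, against 9.64% of all symbols, and 11 higher, against 11.3%. At the gene starts, 5 of 41 histone genes were lower past 1.5-fold, against 40.0% of all coding genes, and 0 were higher, against 1.2%. Relative to the median of all coding gene starts (0.716), 2 were lower, against 8.78% of all coding genes, and 13 higher, against 8.5%. The 41 starts stood on 29 pairs of WT and SHP-1 KO regions, of which 4 were lower past 1.5-fold and 0 higher, with a median ratio of 0.910. Ribosomal protein genes had a median RPB1 ratio of 0.790 at 80 starts. By assignment it was 0.876 over 70 ribosomal protein genes and 1.12 over 21 spliceosomal snRNA genes, which like histone genes are short and not polyadenylated.

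**Figure D4:**
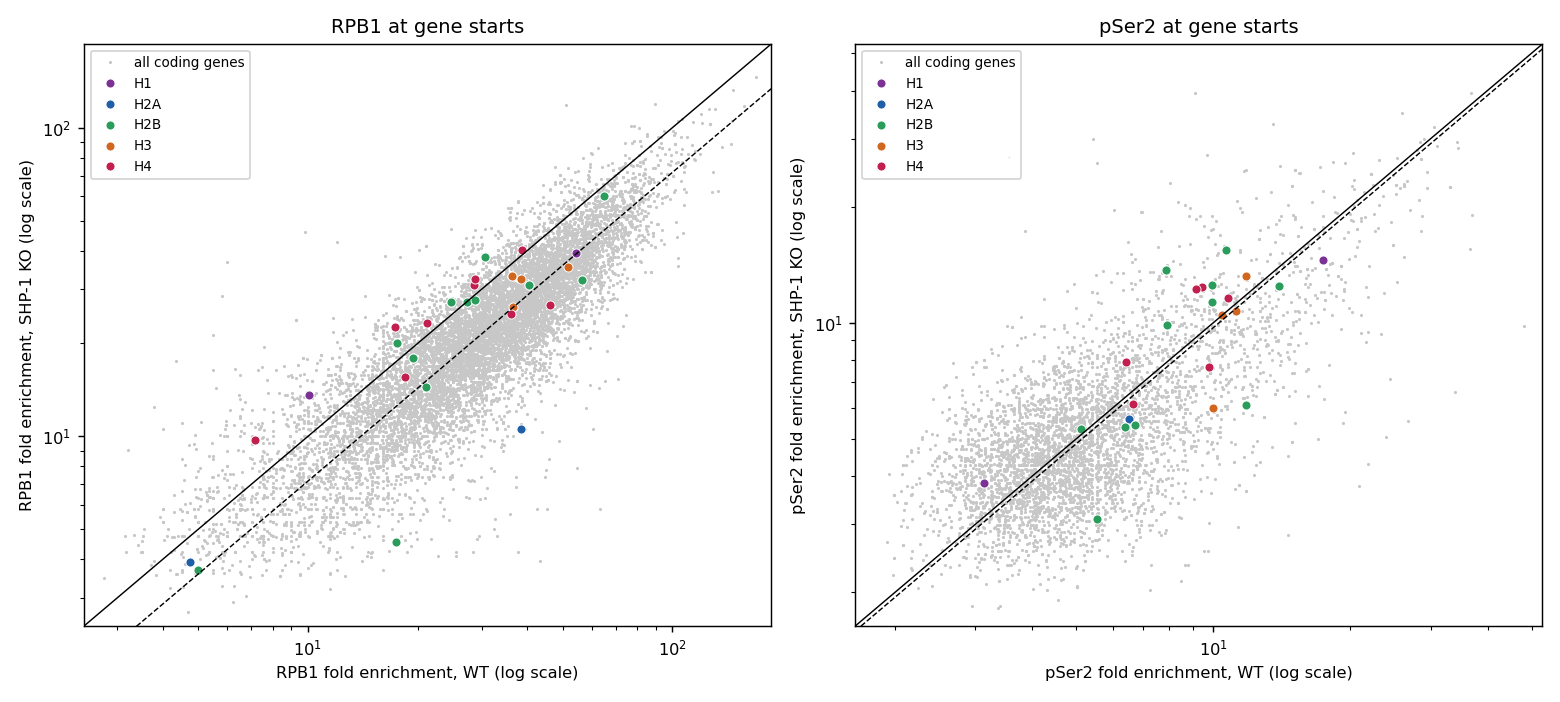
Fold enrichment in SHP-1 KO (y axis) against WT cells (x axis), both on log scales, at coding gene starts with a region in both genotypes, for RPB1 (left) and pSer2 (right), with histone genes coloured by class and all coding genes in grey. Genes under the same region coincide, the solid line marks equal values and the dashed line the median ratio of all coding genes, 0.716 for RPB1 and 0.971 for pSer2. Most histone genes lie above the dashed line for RPB1, although 27 of 41 lie below the solid line.

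Among genes with a region in both genotypes, the median pSer2 ratio lay nearer to 1 than that of RPB1. By presence the order was the reverse: 14.7% of symbols with a WT pSer2 region had none in SHP-1 KO cells, against 9.09% for RPB1. Over the 10870 symbols with both regions the median pSer2 ratio was 0.936, and over 32 members it was 0.975, or 1.04 relative to that median. pSer2 was lower past 1.5-fold at 4 of the 32 members, against 11.7% of all symbols, and higher at 3, against 5.71%. Relative to the median of all symbols, 4 were lower, against 8.35%, and 4 higher, against 8.44%. At the starts, the median was 1.05 over 34 histone genes and 0.971 over all coding genes, with 3 lower past 1.5-fold, against 15.1%, and 3 higher, against 11.0%. The 3 higher starts, those of HIST2H2BE, HIST2H2AC and HIST2H2AB on chromosome 1, lay under a single region that went from 7.87 to 13.7.

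Of the members with a WT region, 4 of 39 had no RPB1 region in SHP-1 KO cells, against 9.09% of all symbols, and 6 of 38 had no pSer2 region, against 14.7%. In the other direction, 2 of 37 had RPB1 in SHP-1 KO cells only, against 4.32%, and 3 of 35 had pSer2 in SHP-1 KO cells only, against 4.92%. At the starts the differences ran in a single direction. RPB1 was present in WT and absent in SHP-1 KO cells at 6 of 47 starts, against 4.54% of all coding genes, and the reverse held for 0 of 41, against 1.36%. For pSer2, 5 of 39 starts had a region in WT only, against 21.7%, and 0 of 34 in SHP-1 KO only, against 13.7%. Among these 5, HIST1H4J and HIST1H2AJ had a SHP-1 KO pSer2 region outside the window of 250 bp, so their absence at the start depends on the window. The 6 RPB1 starts were those of HIST1H3E, HIST1H3F, HIST1H2BH, HIST1H2BK, HIST1H2AH and HIST2H3D, of which HIST1H2BK and HIST1H2AH are a head-to-head pair under a single WT region of 9.37. Their WT values, 3.95 to 11.1, were in the lower part of the histone range. HIST1H2BK had 42.0% and HIST2H3D 27.2% unique 50-base windows, so their values are uncertain.

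Of the 6 starts, 3 were neighbours. In the 48.3 kb from HIST1H3E to HIST1H2BI (chr6:26225135-26273412), a stretch chosen after its values were seen, 8 histone genes lie in a row, and at the 5 with a region in any list by assignment or start the SHP-1 KO value was lower or absent. HIST1H3F (chr6:26250142-26250635, reverse), an H3 gene, had 9.58 for RPB1 and 3.96 for pSer2 in WT cells and no region for either antibody in SHP-1 KO cells. HIST1H2BH (chr6:26251614-26252075, forward), an H2B gene, had 11.1 for RPB1 and 5.54 for pSer2 at its start in WT cells and no region there in SHP-1 KO cells, where a region of 4.05 lay 560 bp from its start by the assignment. HIST1H2BI (chr6:26272931-26273412, forward), also an H2B gene, went from 17.4 to 4.53 for RPB1, and its pSer2 region of 4.00 was absent in SHP-1 KO cells. HIST1H3E, an H3 gene, had WT regions of 3.95 (RPB1) at its start and 6.60 (RPB1) and 4.24 (pSer2) nearby, beside a single SHP-1 KO region of 4.44 for RPB1. Its RefSeq start lies at −957 bp from the GENCODE start used here, outside the stretch, and there the RPB1 regions of 6.60 and 4.44 were present in both genotypes, so the missing SHP-1 KO region at HIST1H3E depends on the annotation. The remaining genes of the stretch, HIST1H4F, HIST1H4G and HIST1H3G, had no region in any list, and HIST1H1D had the intergenic WT region given above.

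Counting by summit, the stretch held 6 RPB1 regions in WT cells and 2 in SHP-1 KO cells, covering 3957 and 474 bp, and 6 pSer2 regions in WT cells and 0 in SHP-1 KO cells, covering 2543 and 0 bp. In the 208 kb before the stretch, the histone gene starts had regions in both genotypes wherever they had one in WT cells. The 12.1 kb compared after it held 1 histone gene, HIST1H4H, which had regions in both genotypes. Farther along chromosome 6, HIST1H2BK and HIST1H2AH had RPB1 in WT cells only, as given above. From HIST1H1A to the edge of the stretch, 19 of 23 histone starts had RPB1 in both genotypes and 18 had pSer2 in both, with 19 RPB1 regions in each list and 24 (WT) and 19 (SHP-1 KO) pSer2 regions, which covered 28370 and 26763 bp. HIST1H2BG and HIST1H2AE, the pair just before the stretch, had 24.8 and 27.1 for RPB1 and 9.94 and 11.3 for pSer2. HIST1H4H, the H4 gene just after it, had 17.3 and 22.6 for RPB1 and 6.67 and 6.14 for pSer2. HIST1H4H and HIST1H2BI thus had nearly equal WT RPB1 values and moved in opposite directions. Unique 50-base windows made up 100% of HIST1H3E, HIST1H3F and HIST1H2BH and 97.4% of HIST1H2BI.

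Some of the largest ratios by assignment followed from how regions were joined. HIST1H3B, an H3 gene, went from 4.32 to 32.5 for RPB1 by assignment, a ratio of 7.52, because its start lay under a WT region of 38.3 that was assigned to the neighbouring H2A gene HIST1H2AB. At its start the values were 38.3 and 32.5, a ratio of 0.847. HIST1H2AB showed the opposite: the WT region had its summit 1632 bp from the start of HIST1H2AB, at HIST1H3B, and the separate SHP-1 KO region at HIST1H2AB reached 10.6, so the ratio of 0.276 does not compare like with like. HIST2H2BE (chr1:149884459-149886682, reverse), an H2B gene, went from 5.26 to 16.5 for RPB1 in the part of the gene past the stem-loop, a ratio of 3.14 between regions whose summits lay 1261 bp (WT) and 719 bp (SHP-1 KO) past the start, and from 6.38 to 11.5 for pSer2. At its start, under the region it shares with HIST2H2AC and HIST2H2AB, RPB1 went from 30.7 to 38.0, a ratio of 1.24. The SHP-1 KO summit at 719 bp lies within the WT region of 30.7, so the RPB1 ratio of 3.14 does not compare the same positions. HIST2H2AA3, an H2A gene of the duplicated segment, went from 4.10 to 9.23 for RPB1 in regions with summits at −1119 and −1133 bp from its start.

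The remaining members with large RPB1 ratios had a region at the start in both genotypes. HIST1H2BC went from 56.4 to 32.1 for RPB1 while its pSer2 value was higher, a pSer2 ratio of 1.45. The RPB1 summits of that region lay at −317 bp (WT) and −282 bp (SHP-1 KO) from the HIST1H2BC start. The pSer2 summits lay 773 and 733 bp past it, so the 2 antibodies were not read at the same position. HIST4H4 (chr12:14770720-14771131, reverse), the histone H4 gene on chromosome 12, went from 46.2 to 26.6 for RPB1, with 9.76 and 7.66 for pSer2. HIST1H4A had 7.18 and 9.74 for RPB1, a ratio of 1.36, and no pSer2 region. Its RPB1 summits lay at −408 bp (WT) and 35 bp (SHP-1 KO) from the start, so this ratio does not compare the same positions. HIST1H1B had a ratio of 1.35. These ratios stand beside the genome-wide median of 0.742, so HIST1H2BC and HIST4H4 (0.569 and 0.575) lay within 1.5-fold of it. Members with an RPB1 region assigned in 1 genotype only included HIST1H2BF, HIST1H2BD and HIST1H2BO. The starts of these H2B genes lay, in both genotypes, under a region assigned to a neighbouring histone gene. For HIST1H2BD that gene was HIST1H1E, on the same strand and not a head-to-head partner.

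For pSer2, the lowest ratios by assignment belonged to HIST1H2AJ (10.3 to 3.95, ratio 0.382), an H2A gene with 32.6% unique windows, to HIST1H1A through its distant regions (0.428), to HIST1H2BB (11.8 to 6.12, ratio 0.520) and to HIST1H4K (16.5 to 8.76, ratio 0.530). The WT value of HIST1H2BB was the summit of a region that reached HIST1H3C, as described above. The highest belonged to HIST1H4J (8.35 to 15.2, ratio 1.82), HIST2H2BE (1.81), HIST2H2AB (1.74), HIST1H2BC (1.45) and HIST1H2BN (1.40), an H2B gene. HIST1H4J and HIST1H4K are the H4 genes with near-identical sequences between start and stem-loop, and their pSer2 ratios lay on opposite sides of 1. The H3 gene HIST1H3D, read at its start and named after its values were seen, went from 9.97 to 6.02 at its GENCODE start, a ratio of 0.603, and its RefSeq start lies under the region of HIST1H2AD (9.94 and 12.5).

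A larger share of regions was found in both genotypes at histone genes than across each list. Of 52 WT RPB1 regions assigned to members, 43 (82.7%, 70.3 to 90.6%) overlapped a SHP-1 KO RPB1 region by at least 1 bp, against 61.9% of all WT RPB1 regions, and 45 of 50 SHP-1 KO regions (90%, 78.6 to 95.7%) overlapped a WT region, against 74.9%. For pSer2, 51 of 65 WT regions (78.5%, 67.0 to 86.7%) and 52 of 55 SHP-1 KO regions (94.5%, 85.1 to 98.1%) were shared, against 52.2 and 69.9%. Shared histone regions of the WT RPB1 list had a median fold enrichment of 18.5, against 8.35 for all shared regions of that list. Histone regions without a partner were weak, with medians of 3.95 and 3.96 for RPB1 in WT and SHP-1 KO cells and 3.10 and 2.81 for pSer2. Regions assigned to members were promoter regions in 75% (WT) and 74.0% (SHP-1 KO) of cases for RPB1, against 44.6 and 47.4% of all regions, and in 64.6 and 69.1% for pSer2, against 23.9 and 25.1%.

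Genes for proteins and RNAs that act on histone genes, transcripts or proteins were compared next. Of 31 genes for transcription, 3′ processing and chaperoning of histones, 27 had an RPB1 region in WT cells and 26 in SHP-1 KO cells, with a median ratio of 0.751 over 26 genes, 10 lower past 1.5-fold and 1 higher, where the shares of all symbols are the 36.1% and 2.68% given above. At the starts of the 30 coding genes among them, RPB1 was present at all 30 in both genotypes, with a median ratio of 0.675. There 15 were lower and 0 higher, against 40.0% and 1.2% of all coding genes, whose median ratio was 0.716. For pSer2, by assignment, 26 and 22 had a region, with a median ratio of 0.939 over 21 genes. Of these, 0 were lower past 1.5-fold, against 11.7% of all symbols, and 2 higher, against 5.71%. NPAT, the coactivator of histone gene transcription, had 26.8 and 15.9 for RPB1 at its start. CASP8AP2, a component of the histone locus body, had 16.4 and 15.5. SLBP, which binds the stem-loop, had 54.0 and 40.7 for RPB1 and a pSer2 region of 5.16 in WT cells only. RNU7-1, the gene of the U7 snRNA that directs the cut after the stem-loop, was higher in SHP-1 KO cells with both antibodies, at 50.4 and 68.2 for RPB1 and 15.5 and 24.5 for pSer2. Its region lies next to PTPN6, the gene that was edited in the SHP-1 KO line, where RPB1 regions of 24.0 (WT) and 17.2 (SHP-1 KO) were listed, which does not test the loss of the protein.

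The histone variant genes, which lie outside the rule and as a group are less tied to S phase, had RPB1 regions at 11 of 12 starts in both genotypes, with a median ratio of 0.771 over 11 genes. H3F3B, which encodes H3.3, went from 90.1 to 55.4 for RPB1 at its start and from 15.2 to 10.1 for pSer2. H3F3A, the other H3.3 gene, had 35.1 and 41.9 for RPB1, and a pSer2 region of 6.42 in SHP-1 KO cells only. H2AFX, whose protein marks DNA breaks, went from 78.8 to 38.4 for RPB1 and had 16.9 and 11.6 for pSer2. H2AFZ, the H2A.Z gene, had 27.5 and 32.1 for RPB1 and went from 4.01 to 7.94 for pSer2.

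The lists held 46045 RPB1 regions for WT and 41605 for SHP-1 KO cells, and 102674 and 81012 pSer2 regions. Without read counts in the lists, library depth is unknown. Hepatoma markers were occupied: RPB1 regions were assigned to all 8 (ALB, AFP, APOA1, APOB, TTR, FGB, SERPINA1 and HNF4A) in WT and to 7 in SHP-1 KO cells, and pSer2 regions to all 8 in both. Of 4 markers of other cell types, PTPRC, CD3E and COL1A1 had no region in any list and PECAM1 had regions of 7.44 and 7.87 for RPB1 and of 9.75 and 7.67 for pSer2, at the 85.5th and 75.9th percentiles of all symbols.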

How the data were processed

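ChIP-seq was performed by the authors with anti-RPB1 and anti-pSer2 antibodies in HepG2 cells of both genotypes, giving 4 libraries and 2 inputs, which were not analysed here. Per the study's methods and processing notes, single-end reads of 50 bases were trimmed with Trimmomatic, aligned with BWA to GRCh38/hg38 and called as narrow peaks with MACS2 against input. Versions are not given in the sources used here. The deposited lists hold fold enrichment, a ratio over input, with −log10 p-values and q-values, and the nearest gene. A deposited table of the authors' own csaw comparison, with p-values per region, was not used.

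The value of a gene was its highest fold enrichment by assigned symbol, or of the regions within 250 bp of the GENCODE release 44 canonical start. Genes were called past 1.5-fold, with no test. Members, lists and naming rule (the 5 highest per list, the 5 lowest and highest ratios per antibody, RPB1 in 1 genotype only, H1 genes, and NPAT, CASP8AP2, SLBP, RNU7-1, H2AFZ, H3F3A, H3F3B and H2AFX) were chosen with earlier results of these data known. Other genes were chosen after their values were seen. Unique 50-base windows were counted over the 194 non-alternate sequences of hg38. Functions were tested on simulated data. Python 3.11.15, pandas 2.3.3 and SciPy 1.17.1 were used.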

Additional observations from a re-analysis of the deposited data

How the results depend on the processing

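No paired analysis was possible because each group has a single library, which also means that no replicate was left out, and no result comes from a test. Depth is not given by the lists. Gene start values were added after the data were seen.

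The counts of members with a region, by list, class and chromosome, the counts of variant genes, the share of summits within 250 bp of the start and the share of RPB1 genes with pSer2 stayed within 1.5 times or within their interval under every alternative run for them. Under a reciprocal overlap of 50%, shared regions dropped to 63.5% (WT) and 66.0% (SHP-1 KO) for RPB1 and 56.9 and 67.3% for pSer2, where all regions gave 40.1, 44.3, 25.95 and 32.9%.

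Members with higher RPB1, 3 as reported, became 1 at −log10 q of at least 5, 1 with promoter regions, 1 on chromosome 6, and 0 by overlap with the gene, at gene starts and with each pair of regions counted once. They became 11 after division by the median of all symbols, where the members with lower RPB1 went from 6 to 3 and the median from 0.925 to 1.25. Past 2-fold, 3 members were lower for RPB1, and 2 lower and 0 higher for pSer2. The RPB1 median was 0.927 at the stricter q-value, 0.910 with promoter regions, with the mean of regions, on chromosome 6 and with each pair once. It was 0.917 without near-identical copies. Members with higher pSer2, 3 as reported, became 5 with the mean of regions, 1 on chromosome 6 and 1 with each pair once. The pSer2 median, 0.975, was 0.988 at the stricter q-value, 1.04 by overlap with the gene and after division by the median of all symbols, 0.994 with promoter regions, 0.981 with the mean, 0.961 on chromosome 6 and without near-identical copies, 1.05 at gene starts and 1.02 with each pair once. The RPB1 ratio of HIST1H3B turned from 7.52 to 0.847 by overlap and at the start, because another region was then read.

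Median summits past the start at the stricter q-value were 60.5 bp (WT RPB1), 94.5 bp (WT pSer2) and 82.5 bp (SHP-1 KO pSer2), and by overlap 53.5, 25, 61.0 and 62.0 bp for WT RPB1, SHP-1 KO RPB1, WT pSer2 and SHP-1 KO pSer2. Median lengths in that order were 1598, 1578, 985 and 1044 bp at the stricter q-value and 2393.5, 2432, 1117 and 1159.5 bp by overlap. The cause of these moves was not tested.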

Other observations

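The octamer ATTTGCAT was present in 23 of 44 histone promoters with a WT RPB1 region at the start and in 3 of 20 without one. TATAAA was present in 30 of 44 and 12 of 20, and CCAAT in 37 of 44 and 17 of 20. Classes differ in these letters and genes under a shared region are not independent, so the counts are a description. The 44 include HIST1H3D, whose RefSeq promoter is that of HIST1H2AD.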
